A study of Mus musculus with 4 samples.

Results

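The NRF2, glutathione and iron genes are a set of 37 genes that keep the cell's redox state and its free iron in check. They were taken by symbol from the deposited expression table, which held all 37 among its 24421 genes. RNA was sequenced from 4T07 cells, a transplantable mouse mammary carcinoma line of strain Balb/cfC3H, giving 4 libraries. By their labels, 2 hold control cells (genotype control) and 2 hold cells with Six2 overexpression, Six2 being a homeobox transcription factor. Cells of both groups were grown in dishes in high-glucose medium with calf serum for 2 days, and RNA was taken 48 h after plating. The labels name neither a vector nor a clone number, nor do they say that replicates were separate cultures. The p-values therefore measure only how far these libraries scatter, and that scatter may be technical.

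NRF2, encoded by Nfe2l2, is a transcription factor that is held in check by the adaptor KEAP1, which passes it on for degradation. Oxidants and electrophiles disable KEAP1, and NRF2 then binds antioxidant response elements beside genes for glutathione synthesis, thioredoxin, NADPH supply and conjugating enzymes. Free iron feeds the formation of radicals, so cells store it in ferritin, import it through the transferrin receptor and export it through ferroportin. Iron regulatory proteins bind a small hairpin, the iron-responsive element, in the messenger RNAs of these proteins: in the 5′ part of the ferritin and ferroportin messages they block translation, and in the 3′ part of the transferrin receptor message they protect it from decay.

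The hairpins of the iron members are shown because Slc40a1 had the largest difference among the 37 members, being close to 0 in the libraries labelled Six2. The other iron members lay near their control levels. The pattern searched was a C, a stem of 5 bases, the loop CAGTGN with a last base other than G, and 5 bases that pair with the first 5, G-T pairs allowed. It was searched on the sense strand of GENCODE M21 transcripts (GRCm38), where 1.01% of 21877 protein-coding genes held it anywhere. Of the 37 members 5 held it. In Keap1 it lay in the coding part, and in the other 4 in an untranslated part of the message. The sites lay at chr1:45925471-45925487, minus strand, 5′ UTR of Slc40a1, at chr7:45459785-45459801, minus strand, 5′ UTR of Ftl1, and at chr19:9982738-9982754, plus strand, 5′ UTR of Fth1. Tfrc had 4 sites in its 3′ UTR on the plus strand, of which the first lies at chr16:32631225-32631241 and the last at chr16:32631716-32631732. Capitals mark the loop.
Slc40a1: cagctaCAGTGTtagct
Ftl1: cttcaaCAGTGTttgaa
Fth1: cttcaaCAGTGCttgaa
Tfrc, first site: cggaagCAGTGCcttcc
Tfrc, last site: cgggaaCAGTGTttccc
The ferritin hairpins have the same stem and differ in the last base of the loop, whereas the hairpins of Slc40a1 and Tfrc have other stems around the same loop. A match describes the letters only, and these data measure RNA levels, not translation.

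Antioxidant response elements were searched as TGACNNNGC on both strands in RefSeq promoter windows (GRCm38.p6) that run from 250 bases before to 50 after a start site. The motif can overlap AP-1 sites. Windows were found for 32 members, and 12 of these held the motif, against 14% of all genes with a window and 12.4% of all windows. Slc40a1, Gclc, Gsr, Hmox1 and Gsta4 had no entry. The stretches of 4 members follow because they share the motif and differ in how their RNA compared between the groups: Mgst1 (chr6:138140451-138140499, plus strand), G6pdx (chrX:74428909-74428957, minus strand), Gclm (chr3:122245403-122245451, plus strand) and Prdx1 (chr4:116685446-116685494, plus strand). Each is read 5′ to 3′ along the gene's strand, and capitals mark the motif, here on the opposite strand in all 4.
Mgst1: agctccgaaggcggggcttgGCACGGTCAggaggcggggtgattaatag
G6pdx: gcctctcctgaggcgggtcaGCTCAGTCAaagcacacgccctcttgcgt
Gclm: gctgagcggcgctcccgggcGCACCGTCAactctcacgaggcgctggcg
Prdx1: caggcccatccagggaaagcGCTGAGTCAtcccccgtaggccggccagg
The log2 differences between the groups were -0.97 for Mgst1, -0.32 for G6pdx, 0.17 for Gclm and 0.02 for Prdx1, none past the test. These 4 were picked for their differing values, so nothing follows from them about the motif.

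Values are RPKM, reads scaled to gene length and to the size of the library. Recovered read totals were 43110985 and 41881864 for control replicates 1 and 2 and 49910629 and 81524250 for replicates 1 and 2 labelled Six2. For the gene Six2 a level above 0 was listed in 1 library, Six2 replicate 1 (0.0285 RPKM), and 0 in the other three. The labelled overexpression is thus not visible in the values of the mouse gene. The labels do not say whether RNA from the introduced gene would be counted there, so these values neither bear out nor contradict the label, and every direction below is that of the libraries labelled Six2. As a check of the cell type, the simple epithelial keratin genes Krt8 and Krt18 were at 607 to 1059 and 389 to 800 RPKM, and Vim, which encodes the mesenchymal filament vimentin, at 1300 to 1553 RPKM. Cdh1, which encodes E-cadherin, had 14.6 and 8.40 RPKM in the controls against 0.186 and 0.103 RPKM in the libraries labelled Six2. The epithelial markers Epcam, Cldn7 and Esrp1 lay under 1 RPKM in all 4 libraries. Of 8 mesenchymal and fibroblast markers only Vim and Pdgfra (4.78 to 8.85 RPKM) reached 1 RPKM, with Lum and Thy1 listed at 0 in all 4 libraries. Of 11 macrophage markers only Cd68 reached 1 RPKM, with Adgre1, C1qa, C1qb and C1qc listed at 0 in all 4 libraries and a summed level of 8.02 to 13.0 RPKM in control and 5.47 to 9.75 RPKM in Six2-labelled libraries. The globin genes Hba-a1, Hba-a2, Hbb-bs and Hbb-bt were listed at 0 throughout.

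The comparison asked how control and Six2-labelled cells differ in their RNA. Among the 37 genes 1 stood out, Slc40a1, which encodes the iron exporter ferroportin: its mean level was 33.3 times lower in the libraries labelled Six2, and between 13.0 times (without control replicate 1) and 158 times (without Six2 replicate 1, leaving a library of 5 reads) when 1 library was left out. Mgst1, a membrane-bound glutathione transferase, was 1.97 times lower in the mean with overlapping groups (1.22 to 3.35 times with 1 library left out). On the log2 scale 29 of the 37 members lay within 0.25 of their control level, as did 7147 of the 10654 tested genes. None of the 37 passed the test over all genes (limma-trend on log2(RPKM + 1), two-sided, Benjamini-Hochberg adjusted p under 0.05), where 0.113% of the 10654 genes tested did (0.0282% higher and 0.0845% lower). At an unadjusted p under 0.05, 2 members lay lower, Slc40a1 and Gstp1, and 0 higher, against 9.66% lower and 7.36% higher of all tested genes (17.0% in all). Both libraries of one group lay above both of the other for 5 members that were higher and 9 that were lower in Six2-labelled cells, which is 13.5% and 24.3% of members against 21.9% and 25.5% of all tested genes. The median log2 difference of the members was -0.0048, and that of all tested genes -0.012. All 37 passed the filter of 1 RPKM in at least 2 libraries. Of these, 36 reached 1 RPKM in all 4 libraries, and Slc40a1 passed only through the control group, so it had to differ.

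**Figure D1:**
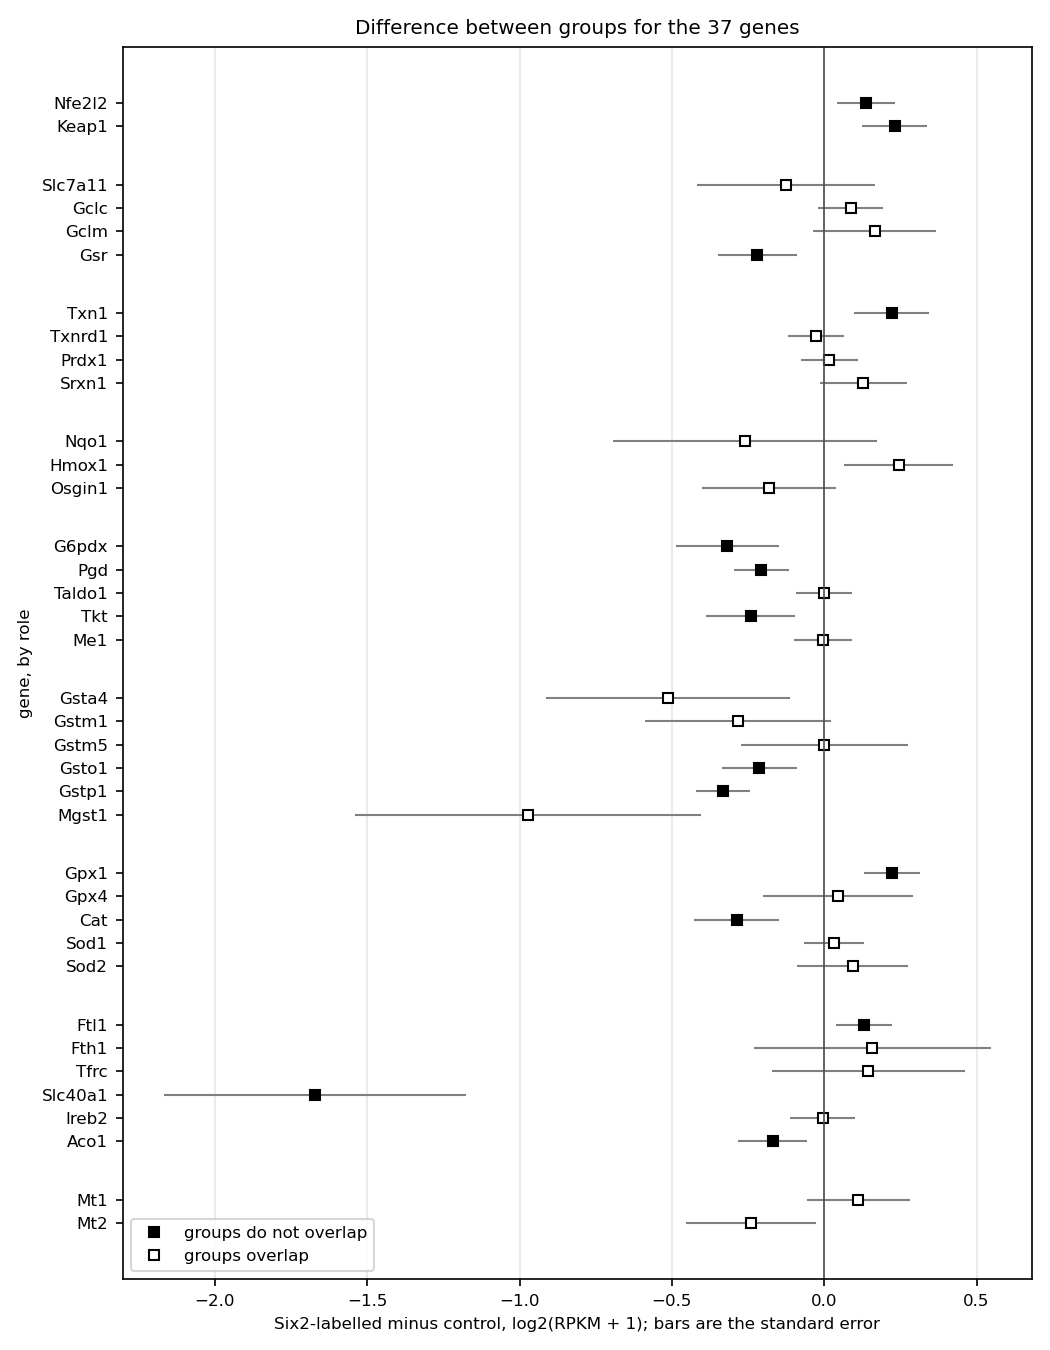
Difference between the groups for each of the 37 genes, in rows by role, as the log2(RPKM + 1) difference of Six2-labelled minus control libraries (2 libraries per group) with its standard error as bars. Filled squares mark the 14 genes whose groups do not overlap; Slc40a1 lies far to the left at -1.67, and Mgst1 at -0.97 has a wide bar.

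Slc40a1 (ENSMUSG00000025993.10, GRCm38 chromosome 1, 45908068 to 45926523, minus strand) was at 4.62 and 1.12 RPKM in control replicates 1 and 2 and at 0.154 and 0.0181 RPKM in Six2 replicates 1 and 2. These values rest on 673, 159, 26 and 5 reads, and the exact 95% Poisson intervals of the Six2-labelled libraries, 0.101 to 0.226 and 0.00589 to 0.0423 RPKM, cover counting error only. Both Six2-labelled libraries lay below both control libraries, and replicate 1 was well above replicate 2 in both groups. The log2 difference was -1.67 (SE 0.50, limma adjusted p = 0.224), on a scale that understates the difference of a gene this low: it was -3.79 with a pseudocount of 0.1 and -0.59 with one of 5. It ranged from -0.97 to -2.37 when 1 library was left out. Slc40a1 passed the threshold when control replicate 2, the lower control, was left out (-2.37). There control replicate 1 stands alone and is assumed to vary like the Six2-labelled pair. Slc40a1 also passed with a replicate block (-1.67, SE 0.25, limma adjusted p = 0.0017). That block pairs libraries of the same number, a pairing the labels do not name. With it 16 of the 37 members passed, Gstp1 and Mgst1 among them, as did a large share of all tested genes. Slc40a1 had passed the filter through the control group, so neither fit lends support. The tested genes of chromosome 1 had a median log2 difference of 0.32, so Slc40a1 lay against the trend of its chromosome. In bulk RNA, fewer cells that express a gene and less RNA per cell cannot be told apart. Macrophages use ferroportin to recycle iron. Of their 11 markers, Adgre1, C1qa, C1qb and C1qc were listed at 0 in all 4 libraries. Cd68, which other cells also express in lysosomes, was at 12.4 and 7.41 RPKM in control and 9.21 and 4.99 RPKM in Six2-labelled libraries, and the other six markers lay under 1 RPKM. The part of such cells in the Slc40a1 values was not tested.

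The storage proteins of iron were at the other end of the range. Ftl1, the ferritin light chain gene (chromosome 7, 45457944 to 45459884), was at 3987 and 4037 RPKM in control and 4554 and 4238 RPKM in Six2-labelled libraries, and in RPKM it ranked 4th among the 10654 tested genes by control mean. The Six2-labelled libraries lay slightly above the controls (log2 difference 0.13, SE 0.09, limma adjusted p = 0.538). Fth1, the ferritin heavy chain gene with the ferroxidase activity (chromosome 19, 9980598 to 9985098), was at 2593 and 1612 RPKM in control and 3103 and 1675 RPKM in Six2-labelled libraries. Its groups overlapped, since in each group replicate 1 was far above replicate 2. The ratio of Ftl1 to Fth1, in RPKM, was 1.54 and 2.50 in control and 1.47 and 2.53 in Six2-labelled libraries, so the balance of light to heavy chain RNA followed the replicate number and not the group.

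Tfrc, which encodes the transferrin receptor for iron uptake (chromosome 16, 32608920 to 32632794), went the opposite way between replicates, at 31.6 and 54.3 RPKM in control and 38.8 and 54.4 RPKM in Six2-labelled libraries. Its groups overlapped (log2 difference 0.14, SE 0.32), and that difference turned to -0.24 without control replicate 1. The genes of the iron regulatory proteins differed little. Ireb2, which encodes IRP2, was at 17.7 and 16.2 RPKM in control and 17.6 and 16.2 RPKM in Six2-labelled libraries. Aco1, which encodes IRP1, the protein that doubles as cytosolic aconitase, was at 16.7 and 18.2 RPKM against 14.5 and 16.3 RPKM (log2 difference -0.17, SE 0.11, limma adjusted p = 0.522). Of the 6 iron members, then, Slc40a1 alone differed by more than 0.2 on the log2 scale, in the comparison of all 4 libraries.

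**Figure D2:**
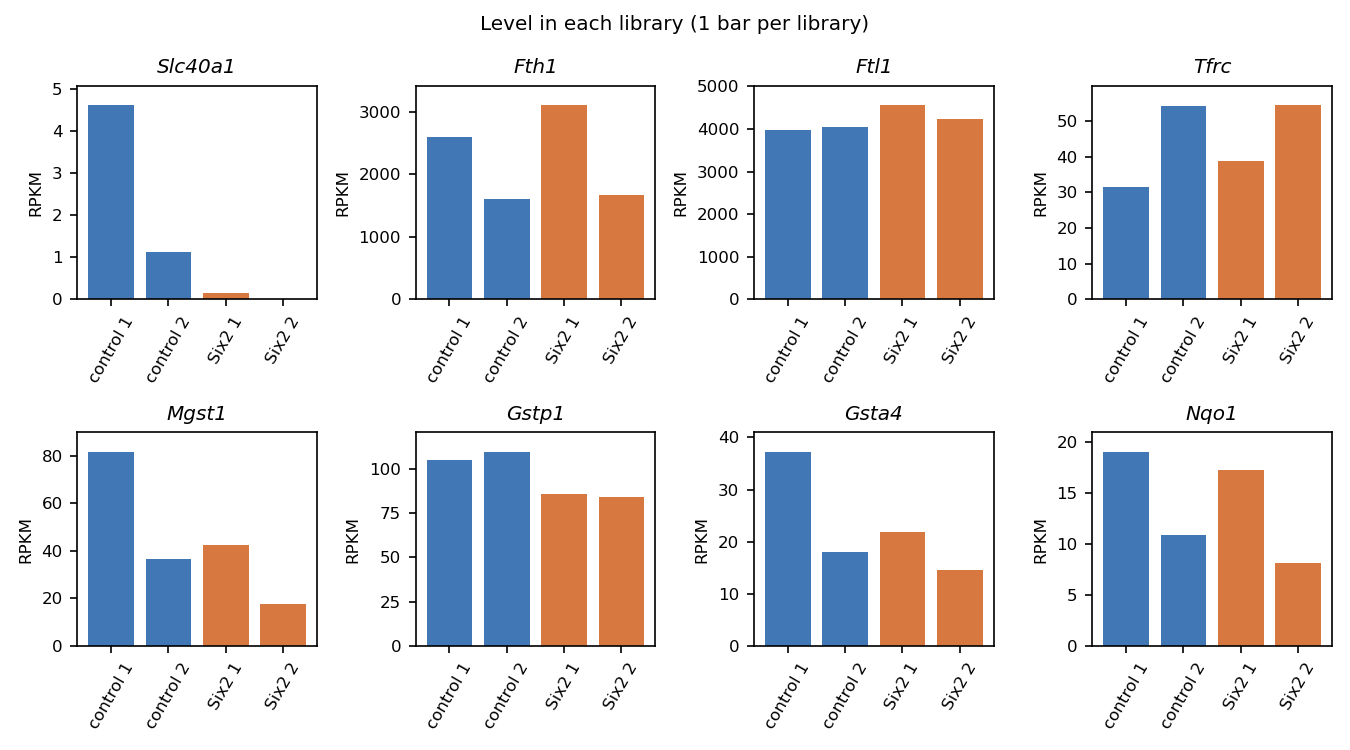
RPKM of 8 members in each library, 1 bar per library, with an axis from 0 in each panel (blue control, orange Six2-labelled). Slc40a1 and Gstp1 are lower in both Six2-labelled libraries, whereas Fth1, Nqo1 and Tfrc differ mainly between replicates 1 and 2.

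The 6 glutathione transferase genes, whose enzymes join glutathione to electrophiles, had log2 differences at or below 0, with a median of -0.31, and none passed the test. Gstm5, at -0.0004, turned to 0.02 when libraries were rescaled by relative log expression factors. Without control replicate 1, Gstm5 was at 0.27, Gstm1 at 0.020 and Gsta4 at -0.0068. Without Six2 replicate 2, Gstm5 was at 0.27 and Gstm1 at 0.025, so the common direction was not kept in every fit. Leaving out 1 library also makes the replicate numbers unequal between the groups. For Gstm1, replicate 2 minus replicate 1 was -0.60 in control and -0.61 in Six2-labelled libraries on the log2(RPKM + 1) scale. At the same number, Gstm1 was lower in Six2-labelled libraries for both replicates. Gstp1, the pi-class enzyme (chromosome 19, 4035407 to 4037985), was at 105 and 109 RPKM in control and 85.4 and 84.1 RPKM in Six2-labelled libraries. The groups did not overlap and the replicates were tight, for a log2 difference of -0.33 (SE 0.09, unadjusted p = 0.0166, limma adjusted p = 0.20). That difference was -0.18 with the median of each chromosome removed, the median of chromosome 19 being -0.135. Mgst1 (chromosome 6, 138140316 to 138156755) was at 81.6 and 36.7 RPKM in control and 42.3 and 17.7 RPKM in Six2-labelled libraries. Replicate 1 was 2.22 times replicate 2 in control and 2.39 times in Six2-labelled libraries, so that control replicate 2 lay below Six2 replicate 1. The log2 difference was -0.97 (SE 0.57, limma adjusted p = 0.466) and ranged from -0.36 to -1.58 when 1 library was left out. At the same replicate number, control was 1.93 times Six2-labelled for replicate 1 and 2.08 times for replicate 2. The labels do not name these libraries as pairs.

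Gsta4, the alpha-class enzyme that conjugates the lipid peroxidation product 4-hydroxynonenal, was at 37.2 and 18.0 RPKM in control and 21.9 and 14.6 RPKM in Six2-labelled libraries (log2 difference -0.51, SE 0.40, limma adjusted p = 0.588). Its control replicate 1 stood above the other libraries, and without it the difference was -0.0068. The mu-class genes had the same split between replicates, Gstm1 at 28.3 and 18.2 RPKM against 23.1 and 14.8 RPKM and Gstm5 at 32.0 and 21.7 RPKM against 32.0 and 21.7 RPKM. Gsto1, the omega-class enzyme, was at 36.1 and 38.8 RPKM in control and 29.5 and 34.9 RPKM in Six2-labelled libraries, without overlap and with a log2 difference of -0.21. Reads shared by near-identical family members may be lost or misassigned in the authors' counting, so the levels of these family genes are uncertain.

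The regulators themselves were both slightly higher. Nfe2l2 was at 83.1 and 83.3 RPKM in control and 95.8 and 87.5 RPKM in Six2-labelled libraries (log2 difference 0.14, SE 0.10, limma adjusted p = 0.538). Keap1 was at 17.6 and 17.5 RPKM in control and 22.1 and 19.5 RPKM in Six2-labelled libraries (log2 difference 0.23, SE 0.11, limma adjusted p = 0.375). Neither gene's groups overlapped, and 21.9% of all tested genes likewise lay higher without overlap. RNA levels leave out the control of NRF2 through protein stability.

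The enzymes most often read as NRF2 output gave no common direction. Nqo1, a quinone reductase, was at 19.0 and 10.9 RPKM in control and 17.2 and 8.11 RPKM in Six2-labelled libraries. Hmox1, which encodes the heme-degrading enzyme heme oxygenase 1, was at 25.6 and 24.3 RPKM in control and 35.0 and 25.3 RPKM in Six2-labelled libraries, Six2 replicate 1 standing above the other libraries. Osgin1, a growth inhibitor induced by oxidative stress, was at 5.91 and 3.90 RPKM against 4.66 and 3.66 RPKM. Groups overlapped for all 3, with log2 differences of -0.26, 0.24 and -0.18, and those of Nqo1 and Osgin1 turned positive without control replicate 1. That fit sets control replicate 2 alone against both Six2-labelled libraries. At the same replicate number, Nqo1 and Osgin1 were lower in Six2-labelled libraries for both replicates, though the labels name no pairs.

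Glutathione synthesis showed no separation of the groups. Gclc, the catalytic subunit of glutamate-cysteine ligase, was at 18.3 and 20.4 RPKM in control and 19.9 and 21.2 RPKM in Six2-labelled libraries. Its modifier subunit Gclm was at 17.1 and 23.6 RPKM against 20.3 and 25.3 RPKM. Slc7a11, the cystine importer that feeds glutathione synthesis, was low at 2.80 and 1.78 RPKM in control and 2.73 and 1.38 RPKM in Six2-labelled libraries. Gsr, which reduces oxidised glutathione, was at 26.4 and 22.0 RPKM in control and 21.3 and 19.8 RPKM in Six2-labelled libraries, without overlap (log2 difference -0.22, SE 0.13, limma adjusted p = 0.469).

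In the thioredoxin system, which reduces protein disulfides and peroxides, Prdx1 was the most abundant member at 511 and 493 RPKM in control and 528 and 489 RPKM in Six2-labelled libraries. Txn1, thioredoxin itself, was at 301 and 358 RPKM in control and 372 and 394 RPKM in Six2-labelled libraries, the only one of the 4 whose groups did not overlap (log2 difference 0.22, SE 0.12, limma adjusted p = 0.444). Txnrd1, thioredoxin reductase, was at 67.9 and 72.3 RPKM against 68.7 and 68.8 RPKM. Srxn1, which repairs overoxidised peroxiredoxin, was at 34.1 and 41.7 RPKM against 38.8 and 43.9 RPKM.

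Of the 5 members grouped as enzymes of the pentose phosphate pathway and NADPH supply, 3 lay below the controls without overlap. So did 25.5% of all tested genes, and none of the 5 passed the test. G6pdx, the entry enzyme of the pentose phosphate pathway, was at 128 and 109 RPKM in control and 108 and 83.2 RPKM in Six2-labelled libraries (log2 difference -0.32, SE 0.17, limma adjusted p = 0.428). Pgd, the next dehydrogenase of its oxidative branch, was at 132 and 138 RPKM in control and 114 and 119 RPKM in Six2-labelled libraries (log2 difference -0.21, SE 0.09, limma adjusted p = 0.347). Tkt, transketolase of the non-oxidative branch, was at 160 and 126 RPKM against 117 and 122 RPKM (log2 difference -0.24, and -0.068 without control replicate 1). Taldo1, transaldolase of the same branch, and Me1, cytosolic malic enzyme, differed by -0.0019 and -0.0051, and both turned to just above 0 with relative log expression factors (0.02 and 0.01).

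Enzymes that remove peroxide and superoxide were split. Gpx1, the cytosolic glutathione peroxidase, was at 387 and 377 RPKM in control and 464 and 429 RPKM in Six2-labelled libraries, higher without overlap (log2 difference 0.22, SE 0.09, limma adjusted p = 0.334). Cat, catalase of the peroxisome, was at 35.7 and 30.7 RPKM in control and 29.4 and 24.7 RPKM in Six2-labelled libraries, lower without overlap (log2 difference -0.29, SE 0.14, limma adjusted p = 0.392). Gpx4, which reduces lipid peroxides in membranes and guards against ferroptosis, was at 287 and 212 RPKM against 306 and 212 RPKM, again following the replicate number. Sod1, the cytosolic copper-zinc superoxide dismutase, was at 376 and 347 RPKM against 384 and 355 RPKM. Sod2, the mitochondrial manganese enzyme, was at 9.52 and 12.1 RPKM against 10.2 and 13.1 RPKM.

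The metallothioneins, small cysteine-rich proteins that bind zinc and copper, had overlapping groups. Mt1 was at 293 and 265 RPKM in control and 348 and 261 RPKM in Six2-labelled libraries, and Mt2 at 184 and 154 RPKM against 171 and 118 RPKM. Six2 replicate 1 was highest for Mt1 and Six2 replicate 2 lowest for Mt2. The ratio of Mt1 to Mt2, in RPKM, was 1.60 and 1.72 in control and 2.04 and 2.20 in Six2-labelled libraries, so the ratio did not overlap between the groups although neither gene's level was apart. That ratio was noticed in the data and has no test.

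**Figure D3:**
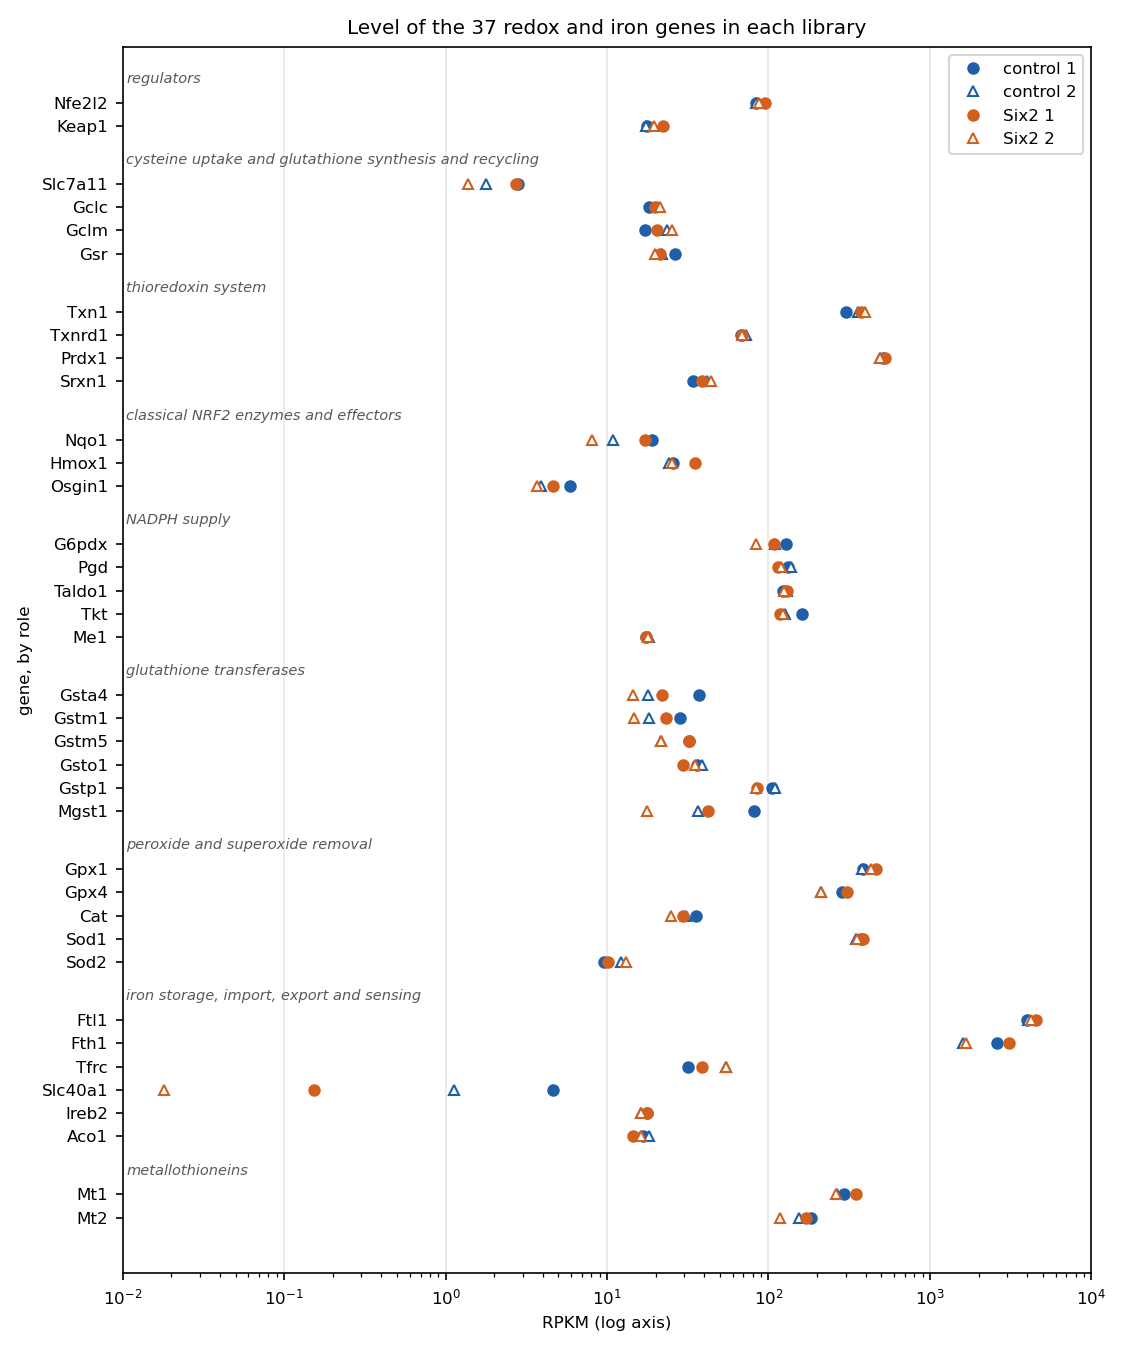
RPKM on a log axis of the 37 genes in each library, by role (blue control, orange Six2-labelled; filled circles replicate 1, open triangles replicate 2). Levels run from 0.0181 RPKM for Slc40a1 in Six2 replicate 2 to 4554 RPKM for Ftl1 in Six2 replicate 1, and for most genes the 4 libraries lie close together.

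Replicates with the same number resembled each other across the groups. Between replicates 1 and 2, 32 of the 37 members differed in the same direction in both groups (86.5%, against 82.9% of all tested genes). Of these, 21 were lower in replicate 2 and 11 higher. For 20 of the 37 members, and for 4456 of the 10654 tested genes, the difference between replicates was larger in both groups than the difference between the groups. Replicate 2 was lower than replicate 1 on the log2(RPKM + 1) scale by 1.13 in control and 1.21 in Six2-labelled libraries for Mgst1, by 0.75 and 1.00 for Nqo1, and by 0.69 and 0.89 for Fth1. Tfrc was higher in replicate 2, by 0.76 and 0.48. Across the 37 genes, which are not independent replicates, the replicate difference in control correlated with that in Six2-labelled libraries at Pearson's r = 0.79, beside 0.82 for all tested genes. The labels do not say what a replicate number stands for.

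**Figure D4:**
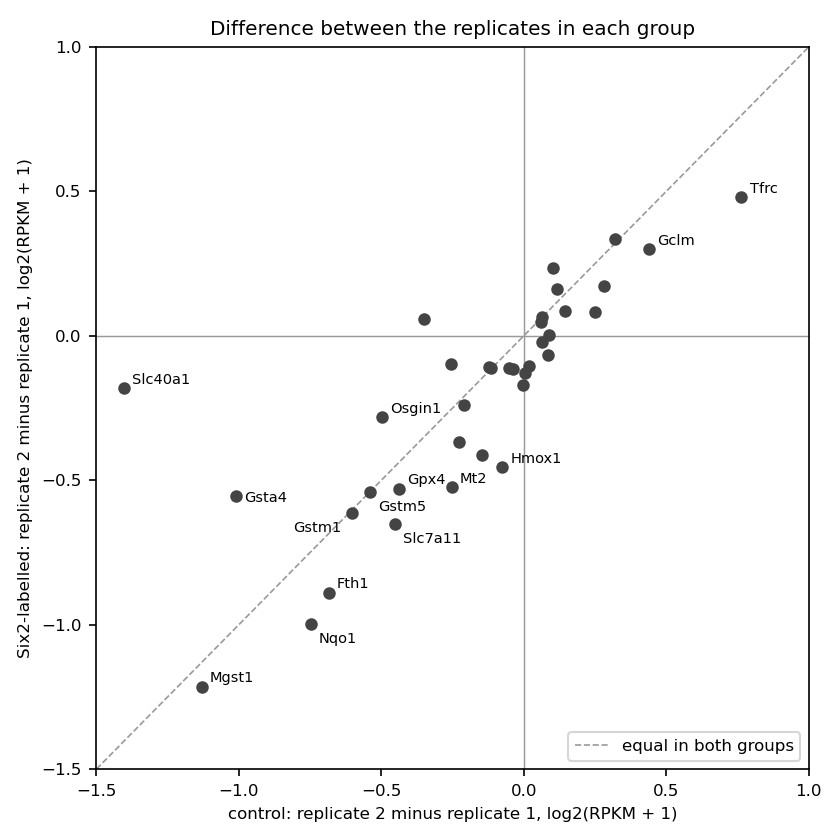
Replicate 2 minus replicate 1 on the log2(RPKM + 1) scale for the 37 genes, control libraries on the horizontal and Six2-labelled libraries on the vertical axis, with a dashed line where both are equal. Most genes lie near that line, from Mgst1 at the lower left to Tfrc at the upper right, and Slc40a1 lies off it, with Six2-labelled values near 0 RPKM in both replicates.

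Other genes of the same pathways gave a wider spread. They were listed by function, but with earlier results of these data known. Of 106 listed genes 105 were in the table and 83 were tested, and none passed over all genes. Groups were apart for 13 that were higher and 23 that were lower (15.7% and 27.7%, against 21.9% and 25.5% of all tested genes), with a median log2 difference of -0.029. Of the 83, 16.9% differed by more than 0.5 on the log2 scale, against 8.11% of the members and 10.7% of all tested genes. Among the genes whose groups did not overlap, the 5 with the largest differences on the lower side came from several arms. Aldh3a1, an aldehyde dehydrogenase, was at 9.60 and 6.51 RPKM in control and 2.39 and 1.82 RPKM in Six2-labelled libraries (log2 difference -1.53, SE 0.22, limma adjusted p = 0.105). Gstk1, the mitochondrial and peroxisomal kappa-class transferase, was at 10.3 and 8.78 RPKM against 3.88 and 3.32 RPKM (log2 difference -1.19, SE 0.14, limma adjusted p = 0.0904).

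Slc39a8, a metal importer that also carries iron, was at 8.61 and 6.0 RPKM in control and 3.06 and 2.17 RPKM in Six2-labelled libraries (log2 difference -1.19). Glrx, glutaredoxin, which removes glutathione from proteins, was at 52.5 and 35.6 RPKM against 22.7 and 19.2 RPKM (log2 difference -1.02). Acsl4, which loads membranes with the polyunsaturated lipids that ferroptosis consumes, was at 259 and 180 RPKM against 124 and 99.8 RPKM (log2 difference -0.95, SE 0.22, limma adjusted p = 0.175). For these 5 genes both control libraries lay above both Six2-labelled libraries, which is how they were chosen.

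On the higher side, Trf, which encodes the iron carrier transferrin, was at 4.42 and 1.90 RPKM in control and 23.5 and 6.47 RPKM in Six2-labelled libraries (log2 difference 1.77, SE 0.66, limma adjusted p = 0.295). Its Six2 replicate 1 was far above the rest, and without that library the difference was 0.91 (limma adjusted p = 0.430). Without Six2 replicate 2 it was 2.63 (limma adjusted p = 0.0406), past the threshold, but with that high library alone in its arm and assumed to vary like the control pair. Mgst2, a relative of Mgst1, was at 69.8 and 56.8 RPKM in control and 97.1 and 88.8 RPKM in Six2-labelled libraries (log2 difference 0.55, SE 0.14, limma adjusted p = 0.185), opposite in sign to Mgst1. Ppox, of heme synthesis, and Steap3, a ferrireductase of endosomes, differed by 0.54 and 0.41. Both lie on chromosome 1, and with chromosome medians removed they differed by 0.22 and 0.098. Pgls, of the pentose phosphate pathway, differed by 0.30, at 51.9 and 55.4 RPKM against 67.9 and 64.4 RPKM, opposite in sign to its neighbours in that pathway, G6pdx and Pgd.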

How the data were processed

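Polyadenylated RNA of 4 libraries, 2 per group, was measured; the library kit was TruSeq Stranded mRNA, per the labels' protocols. The authors deposited RPKM values; the submitters' processing notes name TopHat2 2.1.1, Bowtie2, HTSeq 0.8.0, with GRCm38 and mm10 as builds. No source used here gives the annotation, the gene lengths or the strand setting of counting, and 11 members overlap a gene on the other strand in GENCODE M21, so their values may hold reads of that gene. Reads were recovered from the RPKM steps: whole reads, to within 0.002, came out for all 14459 genes that were above 0 in at least 3 libraries. A listed 0 allows up to 3 reads, or 0.0368 to 0.0716 RPKM on a gene of 1 kb, counting error only. limma 3.58.1 in R 4.3.3 fitted log2(RPKM + 1) on group, with a variance trend, for the 10654 genes that reached 1 RPKM in 2 or more libraries, with Benjamini-Hochberg adjustment over all of them and a threshold of 0.05. The fit was also run on simulated counts. These held no shared difference between replicate numbers and changed only genes with many reads, so that run does not cover the replicate differences or low genes seen here. Standard errors are limma's. Named genes were every member, Six2, marker genes, and up to 5 related genes in each direction with the libraries apart and the largest difference. Alternatives were the pseudocount, the filter, relative log expression factors, voom, a replicate block, leaving out each library and, added after seeing the data, removal of chromosome medians. The members and lists were chosen with earlier results of these data known. Positions come from GENCODE M21 (GRCm38), matched by symbol.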

Additional observations from a re-analysis of the deposited data

How the results depend on the processing

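Over all genes 3 were called higher and 9 lower. With a pseudocount of 5, without the filter and with voom on recovered reads, 0 were called in either direction (1799, 2503 and 1806 genes at an unadjusted p under 0.05), and with a filter of 5 RPKM 1 higher and 0 lower (1389). That filter left 34 members, without Slc7a11, Osgin1 and Slc40a1. Leaving out 1 library gave 2 to 18 higher and 9 to 50 lower, 0 to 1 members lower (Slc40a1 without control replicate 2) and 0 to 1 related genes higher (Trf without Six2 replicate 2); a library left alone in its group is assumed to vary like the other group. The replicate numbers are only shared numbers, since the labels name no pairing, although replicate differences correlated at 0.82 between the groups over tested genes. With a replicate block 2133 genes were called higher and 2506 lower, among them 3 members higher and 13 lower and 21 and 27 related genes. The median of all genes was -0.0069 without the filter, -0.0052 with the 5 RPKM filter, 0.0057 with relative log expression factors, 0.0096 with chromosome medians removed, and -0.0179 to -0.0130 without 1 library. The median of the members was -0.082 with chromosome medians removed and -0.11 to 0.025 without 1 library. Of 441 member values over 12 settings, 39 in 19 members had the opposite sign. With relative log expression factors these were Taldo1 (0.017), Me1 (0.013), Gstm5 (0.018) and Ireb2 (0.014), and with chromosome medians removed Gclm (-0.044), Taldo1 (0.050) and Gpx4 (-0.011). Without 1 library the log2 differences ran from -0.45 to 0.20 for Slc7a11, -0.054 to 0.39 for Gclm, -0.013 to 0.27 for Srxn1, -0.76 to 0.24 for Nqo1, -0.43 to 0.069 for Osgin1, -0.59 to 0.025 for Gstm1, -0.27 to 0.27 for Gstm5, -0.075 to 0.26 for Sod2, -0.24 to 0.53 for Tfrc, -0.065 to 0.056 for Ireb2, -0.071 to 0.018 for Txnrd1, -0.039 to 0.073 for Prdx1, -0.044 to 0.041 for Taldo1, -0.036 to 0.025 for Me1, -0.22 to 0.31 for Gpx4, -0.026 to 0.089 for Sod1, -0.29 to 0.60 for Fth1, -0.094 to 0.32 for Mt1, -0.50 to 0.022 for Mt2. The cause was not tested.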
